A study of Caenorhabditis elegans with 20 samples.

Results

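The transient receptor potential (TRP) channel genes of Caenorhabditis elegans were followed by name through ribosome-bound RNA from 5 sets of cells. The members were the TRPV genes osm-9 (WBGene00003889), ocr-1 (WBGene00003838), ocr-2 (WBGene00003839) and ocr-4 (WBGene00003841), the TRPA gene trpa-1 (WBGene00007801), the TRPC genes trp-1 (WBGene00006614) and trp-2 (WBGene00006615), and the TRPM genes gon-2 (WBGene00001651), gtl-1 (WBGene00001795) and gtl-2 (WBGene00001796). They are 10 of the 18917 gene names in the tables, and all 10 were listed in at least 1 of them.

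TRP channels are cation channels of the cell membrane, and most let calcium in. In the nematode, OSM-9 and OCR-2 work together in ciliated neurons of the head and tail for olfaction and for avoidance of high osmolarity and noxious chemicals, and ocr-2 is also known from the serotonergic ADF neurons. TRPM channels work in epithelia: GON-2 and GTL-1 carry magnesium and calcium into intestinal cells and shape the defecation rhythm, and GTL-2 acts in the excretory cell. The first 7 members are called sensory below and the 3 TRPM genes epithelial. The name sensory is a label only, since it takes in trp-1, which acts in motor and interneurons. TRPA-1 crosses this division, since it is known from head sensory neurons and from the intestine.

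In translating ribosome affinity purification (TRAP), ribosomes tagged in chosen cells are captured from a lysate of whole animals with the messenger RNA they carry, and the whole-animal polyadenylated RNA serves as input. The 5 strains were JAC126 (neurons in general, called neuronal here), JAC433 (serotonin neurons), JAC379 (dopamine neurons), JAC382 (intestine) and JAC127 (muscle), each with 2 TRAP and 2 input libraries, 20 in all. All were synchronized L4 larvae grown at 22 °C on OP50-1 and collected 46 to 48 h past L1 release, with no other treatment named. The promoter that drives the tag in each strain, and how many animals entered a library, are not given in the sources used here.

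Levels are in RPKM (reads divided by gene length and library total), so levels can be set side by side between genes of a library. Each replicate table lists a gene only if it reached 1 RPKM in TRAP or input, and a member that a table does not list has no value there. A gene below 1 RPKM in input is thus listed only where TRAP is higher, and a gene below 1 RPKM in TRAP only where input is higher. In those tables its direction was set by the listing, and such a direction, with any call or interval on it, is given as a description and supports nothing. Each table was normalized on its own, which limits comparisons of levels across strains. A change is log2 of (TRAP RPKM + 1) over (input RPKM + 1), so the 1 that is added shrinks the change of genes at low levels.

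The libraries held 4458414 to 239674141 reads in listed genes, and the smallest was neuronal input replicate 1. Neuronal input replicate 2 stood apart in level: 53.7% of the 9896 genes listed in all tables had their lowest value of the 10 inputs there. Its rank correlation was 0.974 with muscle input replicate 1. These 2 libraries correlated at 0.639 to 0.793 with the other 8 inputs, which correlated at 0.621 to 0.969 among themselves. The 2 ranges thus overlapped. The marker lists moved with the labels, with a median log2 change of 5.75 for pan-neuronal genes in neuronal TRAP (7 of 8 higher by the test described below), 1.18 for intestine genes in intestine TRAP (2 of 8 higher) and 3.16 for body wall muscle genes in muscle TRAP (6 of 8 higher). The serotonin synthesis gene tph-1 stood at 67.2 and 7.58 RPKM in serotonin TRAP against 3.47 and 0.528 RPKM in input. The dopamine transporter gene dat-1 stood at 41 and 5.43 RPKM in dopamine TRAP against 1.76 and 0.985 RPKM in input. In replicate 2 these inputs of tph-1 and dat-1 were below 1 RPKM, so the listing set that direction. Of the other markers of these neurons, cat-1 was higher in TRAP in both strains, mod-5 in serotonin and cat-2 in dopamine. In dopamine both inputs of cat-1 and cat-2 were below 1 RPKM. The marker bas-1 went the other way in dopamine, at 11.4 and 11.2 RPKM against 23.3 and 37.0. In serotonin bas-1 stood at 35.0 and 18.1 RPKM against 23.5 and 36.9. Dopamine TRAP replicate 2 had the lowest RPKM total of the 20 libraries, 670637.

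The neuronal tables listed the most members, 10 in replicate 1 and 8 in replicate 2. In serotonin 7 and 8 were listed, in dopamine 6 and 5, in intestine 5 and 6, and in muscle 0 and 2. In muscle, gon-2 stood at 1.25 RPKM in TRAP and 3.43 in input, and gtl-1 at 0.402 and 2.13, both in replicate 2. No sensory member was listed in muscle in either replicate, and ocr-1 and ocr-4 were listed in the neuronal strain and in no other. In whole-animal RNA the epithelial genes gon-2 and gtl-1 were the most abundant members, with a median input of 4.93 and 6.51 RPKM over the libraries that list them, against at most 2.93 RPKM for any other member.

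**Figure D1:**
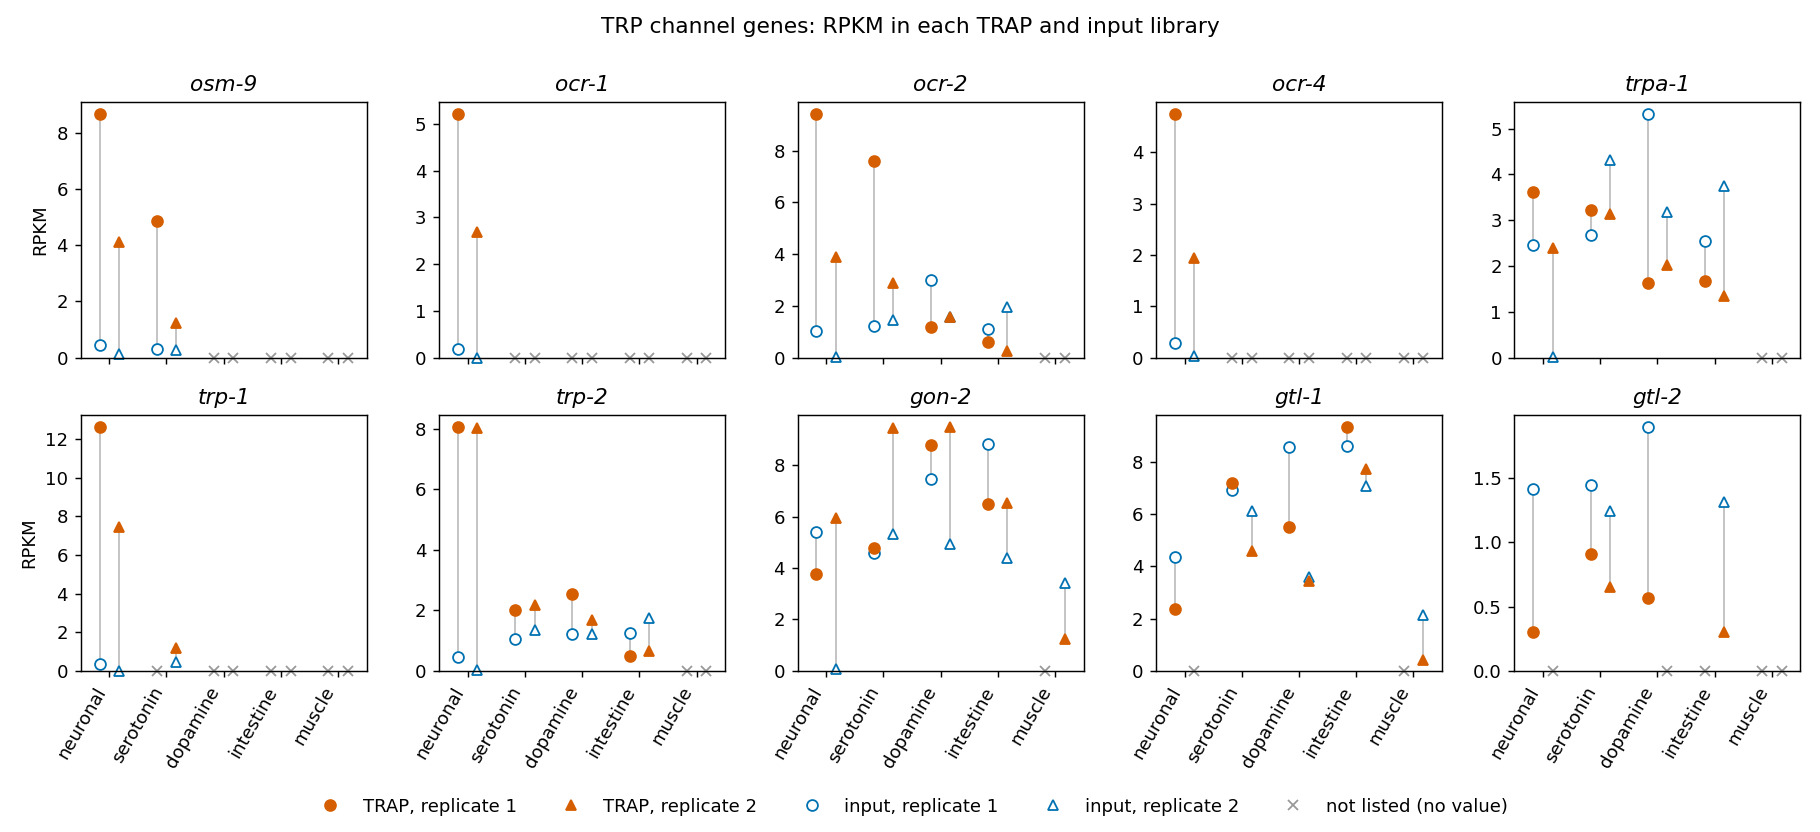
RPKM (linear axis from 0) of each of the 10 TRP channel genes in the 2 TRAP (filled) and 2 input (open) libraries of each strain, with a grey line joining the TRAP and input of a replicate and crosses for replicates without a value. ocr-1 and ocr-4 have values in the neuronal strain alone, whereas gon-2 has values in all 5 strains.

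In the neuronal strain the TRPV channel genes osm-9, ocr-1 and ocr-4 and the TRPC channel genes trp-1 and trp-2 were higher in TRAP than in input. The TRPV gene osm-9 stood at 8.67 and 4.12 RPKM in TRAP and at 0.470 and 0.133 RPKM in input. Both TRAP values lay above both inputs. The log2 change was 2.45 ± 0.83 (SE over 2 and 2 libraries, limma adjusted p = 0.0226).

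The TRPC gene trp-1, which acts in motor and interneurons, stood at 12.6 and 7.43 RPKM in TRAP, and the first is the highest TRAP value of any member. Its inputs held 0.354 RPKM (5 reads) and 0 RPKM (0 reads). It was at least 247-fold higher in TRAP in replicate 2, against a floor of 3 reads in that input, and 35.7-fold higher in replicate 1. Its log2 change was 3.20 ± 0.94 (SE, n = 2 and 2, limma adjusted p = 0.00774), the largest among the members tested.

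The other TRPC gene, trp-2, was nearly equal in the 2 neuronal TRAP libraries, at 8.06 and 8.02 RPKM, against 0.454 RPKM (5 reads) and 0.0257 RPKM (2 reads) in input. Its log2 change was 2.89 ± 0.90 (n = 2 and 2, limma adjusted p = 0.0118). In the annotation (RefSeq WBcel235) a coding gene, R06B10.7, overlaps trp-2, and reads of overlapping genes may not be told apart.

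Of the smaller TRPV genes, ocr-1, known from the AWA and ADL olfactory and nociceptive neurons, stood at 5.21 and 2.68 RPKM in the TRAP libraries against 0.178 RPKM (2 reads) and 0 RPKM (0 reads) in input. ocr-4, known from the OLQ mechanosensory neurons, stood at 4.75 and 1.94 RPKM in the TRAP libraries against 0.282 and 0.0399 RPKM (3 reads each). Each was above both inputs in both TRAP libraries. The log2 changes were 2.14 ± 0.64 for ocr-1 and 1.83 ± 0.61 for ocr-4 (n = 2 and 2, limma adjusted p = 0.00894 and 0.0209). A coding gene, D1054.1, overlaps ocr-1 in the annotation.

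ocr-2 narrowly missed the threshold. Its TRAP levels, 9.43 and 3.88 RPKM, were near those of its channel partner osm-9, and its inputs were 1.05 RPKM and 0.0344 RPKM (3 reads). All TRAP values exceeded all inputs. The log2 change was 2.29 ± 0.88 (n = 2 and 2, limma adjusted p = 0.0513, and 0.0683 in a fit blocked by replicate).

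The remaining tested members, trpa-1 and gon-2, had replicates that differed with the input library. trpa-1, a channel for noxious cold and mechanical stimuli, stood at 3.62 RPKM in the TRAP libraries against 2.47 in input in replicate 1, and at 2.40 against 0.00853 RPKM (1 read) in replicate 2. gon-2 stood at 3.78 against 5.41 RPKM in replicate 1 and at 5.94 against 0.0829 RPKM (17 reads) in replicate 2. The TRAP levels of each gene were thus alike and the inputs were not. Neither passed the test, with log2 changes of 1.08 ± 0.76 and 1.13 ± 1.01 (n = 2 and 2, limma adjusted p = 0.423 and 0.591).

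Of the 8 members tested in the neuronal strain, 5 were higher and 0 lower, where 16.8% of the 13435 genes tested were higher and 0.588% lower. In 6 of the 8 both TRAP libraries exceeded both inputs, as in 43% of the genes tested. The median log2 change was 2.22 over the 8 members and 0.81 over all genes. These counts lend the members no support, since osm-9, ocr-1, ocr-4, trp-1 and trp-2, the 5 called, were below 1 RPKM in both inputs, and in replicate 2 all 8 members were listed only through TRAP. The pan-neuronal and ciliated markers moved with them: the summed RPKM of the 8 ciliated genes was 140 and 180 in TRAP against 4.17 and 0.871 in input, with none at 0, and 7 of 8 were higher. Likewise 7 of these 8 were below 1 RPKM in both inputs, so that their direction was set by the listing, as against 1 of the 8 pan-neuronal genes. A bulk library cannot tell more cells of a type from more RNA per cell.

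Every neuronal call above rested on neuronal input replicate 2. Without it none of the 8 members passed (3.08% of all genes were then called higher), although the changes of the 6 sensory members other than trpa-1 lay between 1.68 for ocr-4 and 2.98 for trp-1, with limma adjusted p of 0.0837 to 0.213. The change of trpa-1 was then 0.19 and that of gon-2 was -0.15. On leaving out neuronal input replicate 1 instead, osm-9, ocr-1 and ocr-4 also missed the threshold. The median log2 change was then 2.52 over the 8 members and 1.75 over all genes. For all 8 members listed in replicate 2, input replicate 2 held the lowest input value of any they had. With relative log expression scaling, which moved the median change of all genes from 0.81 to -0.09, trp-1 and trp-2 were called and the other 3 were not, where 10.3% of all genes were called higher.

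In replicate 1, whose input did not stand apart but held the fewest reads, the listing set the direction of 6 of the 10 members: osm-9, ocr-1, ocr-4, trp-1 and trp-2 were listed only through TRAP and gtl-2 only through input. The other 4, ocr-2, trpa-1, gon-2 and gtl-1, could have gone either way. All 7 sensory members were higher in TRAP than in input, with RPKM ratios from 1.47 for trpa-1 to 35.7 for trp-1, and all 3 epithelial members were lower, with ratios of 0.700 for gon-2, 0.545 for gtl-1 and 0.215 for gtl-2. The 95% counting intervals excluded 1 for each, the nearest being 1.08 to 2.05 for trpa-1 and 0.596 to 0.827 for gon-2 (exact conditional intervals, which cover counting error only). The median log2 change of all genes in that replicate was 0.0013. This comparison has no replicate, because gtl-1 and gtl-2 were not listed in replicate 2 and gon-2 went the other way there, at a ratio of 71.6. The 8 intestine markers summed to 940 RPKM in that TRAP library and 2309 RPKM in its input.

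**Figure D2:**
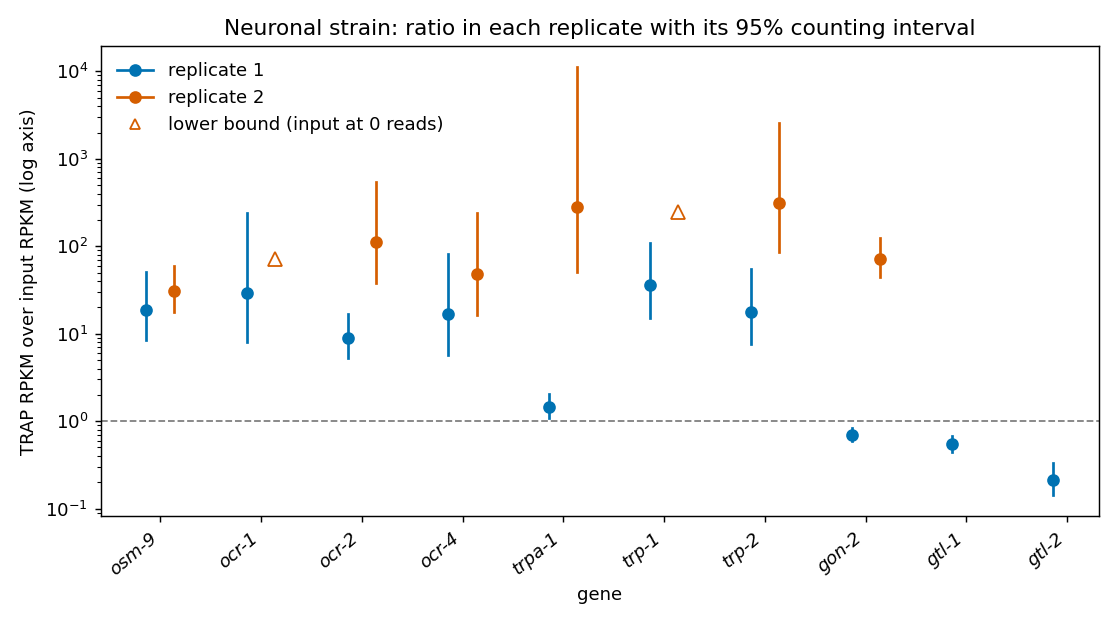
Ratio of TRAP RPKM to input RPKM (log axis) for each TRP channel gene in neuronal replicate 1 (blue) and 2 (orange), with 95% counting intervals as bars, a dashed line at 1 and open triangles for lower bounds where the input held 0 reads. In replicate 1 the 7 sensory genes lie above 1 and the 3 epithelial genes below it, directions that the listing at 1 RPKM set for 6 of the 10, and gon-2 stands at 0.700 in replicate 1 and 71.6 in replicate 2.

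The authors' deposited table of neuron-enriched genes, 2370 in number, contained 6 of the 10 members. The average enrichment in the authors' deposited table was 120.6 for trp-1, 40.7 for ocr-1, 37.4 for trp-2, 16.5 for ocr-2, 12.8 for osm-9 and 12.2 for ocr-4. trpa-1 and the 3 epithelial genes were in none of the authors' deposited tables of enriched genes.

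In the serotonin strain osm-9 and ocr-2 had the largest log2 changes of the 7 members tested. osm-9 stood at 4.86 and 1.24 RPKM in the TRAP libraries against 0.303 and 0.267 RPKM in input, ratios of 16.1 and 4.67. ocr-2 stood at 7.59 and 2.89 RPKM against 1.22 and 1.46 RPKM, ratios of 6.20 and 1.98. TRAP and input did not overlap for either gene, which for osm-9, with both inputs below 1 RPKM, the listing itself required. Replicate 1 was the higher TRAP library for both.

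Without the replicate block no gene of the 14587 passed in limma or edgeR, and so 0 of the 7 members did ( at an unadjusted p below 0.05, limma had 4034 genes and edgeR 3344). In a fit blocked by replicate, where each TRAP library is set against its own input, osm-9 was higher by 1.5 (limma adjusted p = 0.0358, n = 2 and 2) and ocr-2 by 1.30 (limma adjusted p = 0.0430), 2 of 7 members where 9.77% of all genes were higher and 29% lower. DESeq2 on recovered reads, which had no block, also called osm-9 and ocr-2 (DESeq2 adjusted p = 0.000429 and 0.0119), where 8.79% of all genes were higher. The call of osm-9, listed only through TRAP, is a description. Without the block the adjusted p were 0.17 and 0.183. The authors' deposited table of serotonergic genes, 756 in number, lists osm-9, at 12.3, and no other member.

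The other members of that strain stood close to their inputs. trp-2 was at 2.02 and 2.16 RPKM in the TRAP libraries against 1.05 and 1.36 RPKM, above both inputs in both libraries (log2 change 0.49 ± 0.36, limma adjusted p = 0.402, n = 2 and 2). trpa-1 was at 3.22 and 3.13 RPKM against 2.69 and 4.32, and gtl-1 at 7.17 and 4.59 against 6.91 and 6.11. Their replicates went opposite ways. gon-2 was at 4.77 and 9.46 RPKM against 4.57 and 5.34, with a log2 change of 0.39 ± 0.46 (limma adjusted p = 0.597, n = 2 and 2), and trp-1 was listed in replicate 2 alone, at 1.19 against 0.453 RPKM. In all, 3 members had TRAP above both inputs and 1, gtl-2, below both, as 19.8% and 41.3% of the genes tested did.

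In the TRAP libraries of that strain osm-9 and ocr-2 moved with the ciliated markers. The sensory members trp-2 (2.02 and 2.16 RPKM) and trpa-1 (3.22 and 3.13 RPKM) stayed nearly level. The 8 ciliated markers summed to 47.2 and 19.7 RPKM in serotonin TRAP against 8.40 and 8.61 in input, with none at 0, and 3 of the 7 tested were higher with the block. In 5 of the 8 both inputs were below 1 RPKM. Like osm-9, ocr-2 and tph-1, the ciliated markers other than osm-1 (4.62 and 4.64 RPKM) were lower in TRAP replicate 2 than in replicate 1. By contrast, gon-2 was higher in replicate 2. The 4 pharyngeal muscle markers also stood high, at 421 and 389 RPKM in the TRAP libraries against 115 and 101 in input, with none at 0 and 3 of 4 higher with the block. The 8 body wall muscle markers summed to 7429 and 9500 RPKM in TRAP and 14864 and 13267 in input, with 3 higher and 1 lower with the block. Their part in the result was not tested.

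In the dopamine strain no member passed, without the block or with it (8.44% of all genes were then higher and 30.5% lower), and at an unadjusted p below 0.05 there were also 0 members in limma and 1 in edgeR. Over the whole table limma without the block and edgeR called 0 genes (4015 and 3354 at an unadjusted p below 0.05). DESeq2 called 8.68% of all genes higher and 5.54% lower but no member, with 2 members at an unadjusted p below 0.05. ocr-2 stood at 1.18 and 1.58 RPKM in the TRAP libraries against 2.99 and 1.57 RPKM in input, so that the replicates did not share a direction. Both TRAP values of trpa-1 lay below both inputs, at 1.64 and 2.03 against 5.32 and 3.18 RPKM (log2 change -0.86 ± 0.52, limma adjusted p = 0.300, n = 2 and 2).

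The dopamine strain's gon-2 and trp-2 lay above both inputs. gon-2 was at 8.77 and 9.49 RPKM in the TRAP libraries against 7.46 and 4.93, a log2 change of 0.52 ± 0.60 (limma adjusted p = 0.580, n = 2 and 2). trp-2 was at 2.54 and 1.69 RPKM against 1.21 and 1.20, a log2 change of 0.49 ± 0.44 (limma adjusted p = 0.473, n = 2 and 2). The 2 members above and 1 below both inputs compare with 16.8% and 43% of the 14400 genes tested. gtl-1 was at 5.51 and 3.44 RPKM in the TRAP libraries against 8.57 and 3.60. The intestine markers, none at 0, summed to 2762 and 1085 RPKM in that TRAP and to 1528 and 3368 in input, and the pharyngeal muscle markers to 165 and 1803 against 84.9 and 148. The body wall muscle markers, led by the myosin gene unc-54, summed to 4758 and 46117 RPKM in TRAP, with 11796 and 12457 RPKM in input, and 3 of 8 were higher with the block. Their part in these values was not tested.

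In the intestine strain the TRPM genes gtl-1 and gon-2 were the most abundant members on ribosomes. gtl-1 stood at 9.32 and 7.72 RPKM in the TRAP libraries against 8.58 and 7.07 RPKM in input, ratios of 1.09 in both replicates, and gon-2 at 6.49 and 6.54 RPKM against 8.81 and 4.40. TRAP and input overlapped for both. Neither passed, with log2 changes of 0.11 ± 0.64 and 0.05 ± 0.63 (limma adjusted p = 0.915 and 0.964, n = 2 and 2). The typical gene in this strain was lower in TRAP, at a median change of -0.51 and -0.94 in replicates 1 and 2, and both genes lay above that median in both, as did 2 of the 3 listed sensory members in replicate 1 and 1 of 3 in replicate 2. A coding gene, C05C12.1, overlaps gtl-1 in the annotation.

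Sensory members were low there. trp-2 stood at 0.502 and 0.660 RPKM in intestine TRAP against 1.26 and 1.75 in input, and ocr-2 at 0.596 and 0.279 against 1.12 and 1.97. trpa-1, the sensory member with a known intestinal role, stood at 1.68 and 1.35 against 2.55 and 3.76. All 3 were below their inputs in both replicates, with RPKM ratios of 0.142 to 0.661. For trp-2 and ocr-2, below 1 RPKM in both TRAP libraries, the listing set that direction, and for trpa-1 it did not. The ratios of gtl-1 and gon-2 were 0.737 to 1.49, and that of gtl-2 was 0.232 in replicate 2. For trp-2 and trpa-1 both TRAP values lay below both inputs, as for 56.5% of the 14051 genes tested. None of the 4 tested members passed, where 0.406% of genes were higher and 5.34% lower, and ocr-2 was not tested because its mean was below 1 RPKM.

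The intestine markers summed to 5183 and 10188 RPKM in this TRAP against 2097 and 2880 in input, with none at 0. gtl-1 and gon-2 had smaller changes than that list's median of 1.18. Across strains the TRAP level of gtl-1 was highest in intestine, then serotonin and dopamine, whose replicates overlapped, then neuronal replicate 1 (2.37 RPKM) and muscle replicate 2. gon-2 did not share that order: its intestine TRAP levels lay below both dopamine libraries and inside the serotonin range.

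gtl-2 was low wherever it was listed. In TRAP it stood at 0.303 RPKM in neuronal replicate 1, 0.904 and 0.652 in serotonin, 0.570 in dopamine replicate 1 and 0.303 in intestine replicate 2, against inputs of 1.41, 1.45, 1.25, 1.89 and 1.31 RPKM in the same order. With TRAP below 1 RPKM throughout, gtl-2 could be listed only where its input was higher, so TRAP below input in all 5 replicate tables was set by the listing. In serotonin, where it could be tested, the log2 change was -0.40 ± 0.36 (limma adjusted p = 0.482, n = 2 and 2). The 4 excretory cell markers, for the cell in which GTL-2 is known to act, were also below input in these tables save neuronal replicate 1: their summed RPKM was 57.6 and 74.2 against 287 and 282 in serotonin and 194 against 155 in neuronal replicate 1, where exc-9 alone was above input (166 against 52.4). In the annotation gtl-2 is a near neighbour of gtl-1, with 5 coding genes between them.

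**Figure D3:**
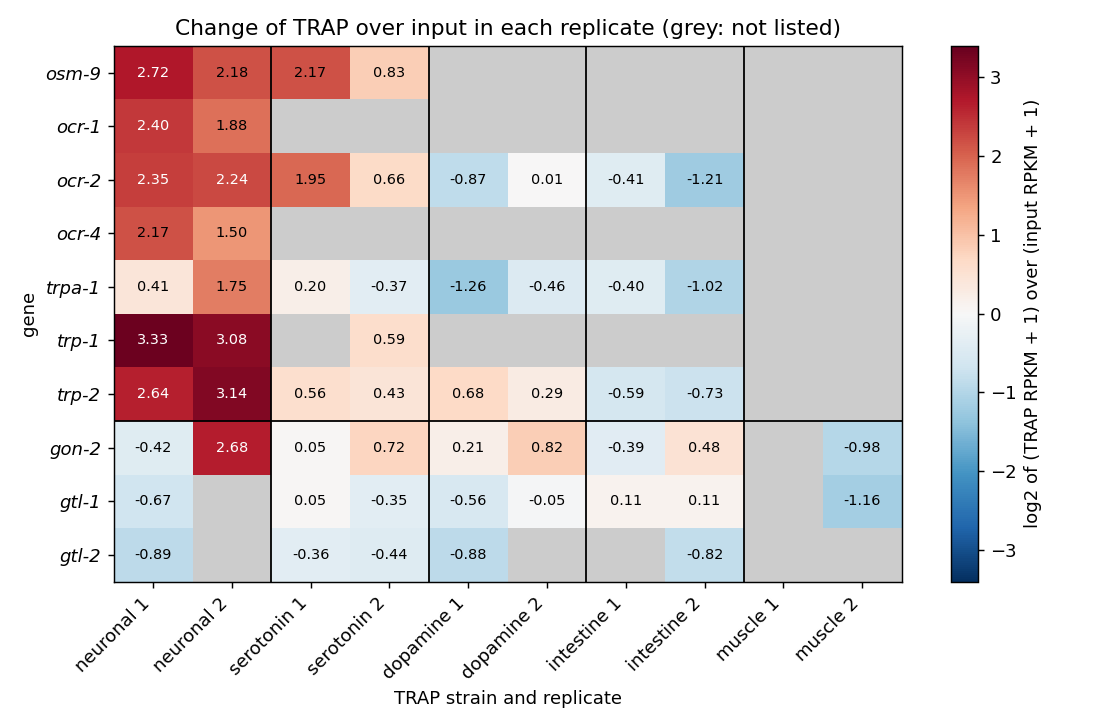
Log2 change, TRAP against input (RPKM + 1), for each TRP channel gene (rows, sensory above the line and epithelial below) in each strain and replicate (columns); red is higher in TRAP, blue lower and grey not listed. ocr-2 is positive in all 4 neuronal and serotonin replicates, a sign that the listing at 1 RPKM set in neuronal replicate 2 only. osm-9 is positive in the same 4 and gtl-2 negative in the 5 columns that list it, signs that the listing at 1 RPKM set.

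Whether the change itself differed between strains was tested over the 8 libraries of a pair of strains, for members listed in all of them. Between neuronal and intestine, trp-2 differed by 3.55 ± 0.69 (limma adjusted p = 0.00167, n = 2 libraries a group) and ocr-2 by 3.11 ± 0.75 (limma adjusted p = 0.0076), both higher in neuronal. The sign was set by the listing for trp-2, listed only through TRAP in neuronal and only through input in intestine, and for ocr-2 in intestine and in neuronal replicate 2, so these differences are a description. They are 2 of 4 members tested, where 13.4% of 12396 genes were higher, and the median difference of all genes was 1.44. trpa-1 differed by 1.79 ± 0.86 (limma adjusted p = 0.184) and gon-2 by 1.08 ± 1.19 (limma adjusted p = 0.579). Without neuronal input replicate 2 the difference was 3.30 for trp-2 (limma adjusted p = 0.00712) and 2.61 for ocr-2 (limma adjusted p = 0.0487). Under relative log expression scaling trp-2 kept its call (adjusted p = 0.00998) and ocr-2 was at 0.0511. The call of ocr-2 did not hold on leaving out intestine input replicate 2. On leaving out neuronal input replicate 1 the median difference was 3.14 over the 4 members tested and 2.39 over all genes. gtl-1 could not be compared, being unlisted in neuronal replicate 2.

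The serotonin and neuronal changes of osm-9 and ocr-2 were not shown to differ. The difference, serotonin minus neuronal, was -0.95 ± 0.79 for osm-9 and -0.99 ± 0.91 for ocr-2 (limma adjusted p = 0.485 and 0.526, n = 2 libraries a group). trp-2 did differ, by -2.39 ± 0.68 (limma adjusted p = 0.0476), 1 of 5 members where 9.12% of 12730 genes were lower. Its neuronal change, from tables that list it only through TRAP, could not be negative. That call was lost with a pseudocount of 0.1 and on leaving out any library other than neuronal input replicate 1. Without that library the median difference was -2.02 over the 5 members and -2.17 over all genes.

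Between dopamine and neuronal, ocr-2 and trp-2 had differences of -2.73 ± 0.84 and -2.40 ± 0.74 (limma adjusted p = 0.0526 and 0.0517, n = 2 libraries a group), and no member passed where 10.5% of genes were lower. With the replicate as a block both were lower in dopamine (limma adjusted p = 0.00299 and 0.0102), 2 of 4 members where 19.4% of 12485 genes were lower. The listing through TRAP set the neuronal sign of trp-2 in both replicates and of ocr-2 in replicate 2, so these differences are a description. Without neuronal input replicate 2 the differences of ocr-2 and trp-2 were -2.23 and -2.15, and neither passed without the block. On leaving out neuronal input replicate 1 the median difference was -2.74 over the 4 members and -2.28 over all genes.

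Between dopamine and serotonin no member passed, and no gene did. ocr-2 had the largest difference of the 5 members tested, dopamine minus serotonin, at -1.74 ± 0.68 (n = 2 libraries a group, limma adjusted p = 1.0 over 14001 genes). At an unadjusted p below 0.05 there were 155 genes, and the block called 51 genes and no member. These comparisons share libraries, so they are not independent of each other.

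**Figure D4:**
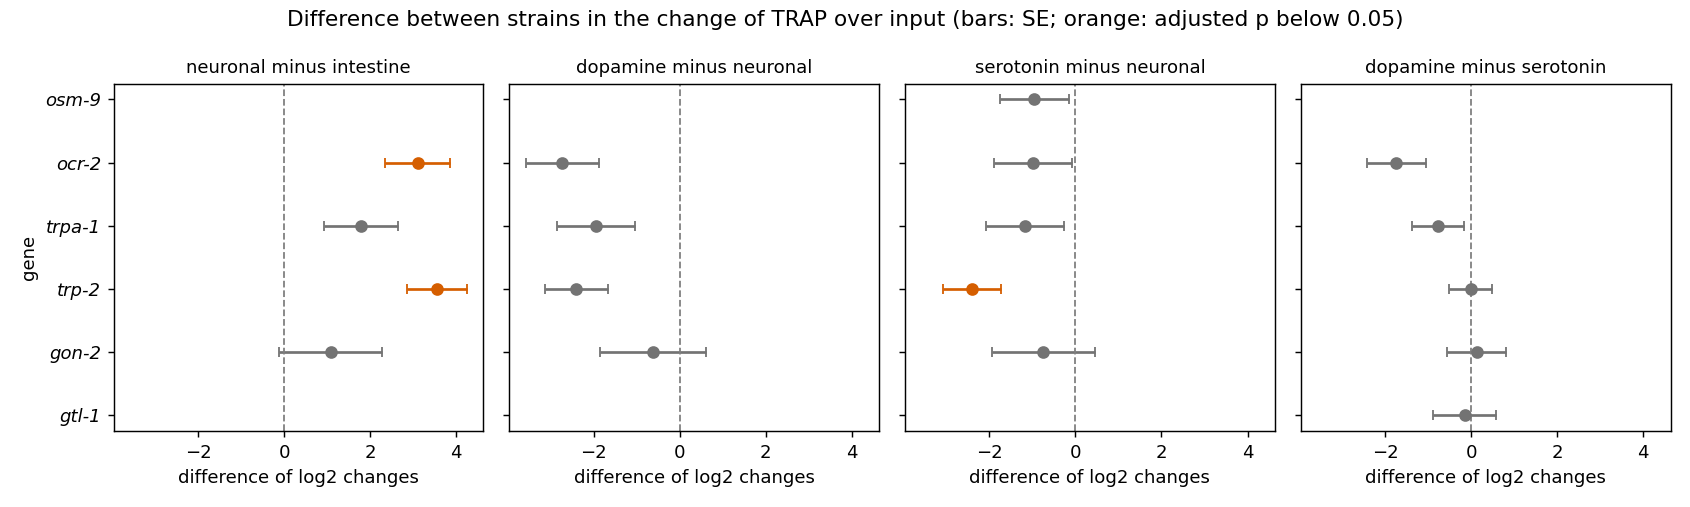
Difference between strains in the log2 change of TRAP over input (x axis, points with SE bars) for the 6 TRP channel genes that could be compared in at least 1 pair of strains; orange points have a limma adjusted p below 0.05. trp-2 and ocr-2 lie at 3.55 and 3.11 for neuronal minus intestine, and trp-2 at -2.39 for serotonin minus neuronal. The listing at 1 RPKM set the neuronal and intestine signs of trp-2, and those of ocr-2 in intestine and in neuronal replicate 2.

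Partners of the sensory channels moved with them in the neuronal strain. Of 13 chemosensory transduction genes, 12 were tested and 7 were higher in neuronal TRAP, against 16.8% of all genes, with a median log2 change of 2.53. osm-10, needed for osmotic avoidance, had a change of 5.20 ± 1.32 (limma adjusted p = 0.00255, n = 2 and 2). The G protein alpha subunit genes odr-3 and gpa-3 had changes of 5.01 ± 1.32 and 4.67 ± 1.25. In 6 of the 12, these 3 included, both inputs were below 1 RPKM and the listing set the direction, so any call of these is a description. All 7 calls also take in neuronal input replicate 2. In serotonin 0 of 9 passed without the block and 1 with it, gpa-3, at 1.77 (limma adjusted p = 0.0087). In dopamine odr-3 and odr-8 were lower with the block, by -1.46 and -1.16, and none was higher. These are 2 of the 7 tested, where 30.5% of all genes were lower. For odr-3, below 1 RPKM in both TRAP libraries, the listing set that direction. In intestine grk-2, for a G protein-coupled receptor kinase, was lower by -2.15 ± 0.43 (limma adjusted p = 0.000127). No other of the 6 tested passed, where 5.34% of all genes were lower. Being below 1 RPKM in both TRAP libraries, grk-2 was listed only through input, so the listing set its direction and the call is a description.

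Partners of the epithelial channels in the intestinal calcium rhythm and ion transport were 14 genes. In intestine TRAP 13 were tested and none passed without the block, at a median of 0.45. With the block the calreticulin gene crt-1 was higher, by 1.30 (limma adjusted p = 0.00483), and pbo-5, for a proton-gated channel of muscle, was lower, by -1.47 (limma adjusted p = 0.0211). These are 1 higher and 1 lower of 13, where 317 of 14051 genes were higher and 2935 lower. dsc-4, the last of the 3 with the smallest p without the block, was at 1.23 ± 0.59 (limma adjusted p = 0.147). In neuronal TRAP only the receptor gene aex-2 passed of 13 tested, at 3.0 ± 1.13 (limma adjusted p = 0.0457, or 0.0508 with the block), where 16.8% of all genes were higher. With the block 3 of 14 were higher and 4 lower in serotonin, and 0 of 13 higher and 5 lower in dopamine, beside 9.77% and 29% of all genes in serotonin and 8.44% and 30.5% in dopamine.

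By correlation over libraries, the 5 genes whose log2 RPKM followed gtl-1 most closely were ifp-1 (Pearson r = 0.953), F12B6.2 (0.95), fbxa-61 (0.949), tag-343 (0.946) and the sterol regulatory factor gene sbp-1 (0.942), each over 16 libraries and among 14284 genes. osm-9 was listed in 8 libraries, under the minimum of 12, and has no such list. For ocr-2, added because osm-9 had none, they were plx-2 (0.967 over 14 libraries), twk-14 (0.962 over 12), C16D9.6 (0.930 over 16), ceh-2 (0.930 over 16) and npr-6 (0.930 over 12). TRAP and input of a replicate share a lysate, so these points are not independent, and the values are a description.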

How the data were processed

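RNA of TRAP purifications and of whole-animal input was sequenced in 20 libraries of 5 strains, grouped from the labels, 2 biological replicates per group per the file headers. The submitters' processing notes name STAR for alignment and HTSeq for counting. Their versions, the genome build and the use of strand are not given in the sources used here. The authors' deposited RPKM was used for every comparison. The authors' deposited count columns hold, as inferred from their values, reads + 1. In 1 library of each replicate the deposited values are a scaled signal, those counts times a factor, and undoing it gave whole reads for 100% of values. The authors' deposited ratio divides the TRAP column by the input column and is quoted only where named.

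The design foresaw edgeR for counts. As the files hold RPKM, limma-trend (limma 3.58.1, R 4.3.3) was fitted to log2 of RPKM + 1 over all genes with a mean of at least 1 RPKM that both replicates list, with Benjamini-Hochberg adjustment at 0.05; differences between strains were interaction contrasts. The function was tested on simulated data. Limma's prior degrees of freedom were infinite in the muscle and neuronal fits, and in the blocked fits other than those of serotonin and of dopamine against serotonin, so disagreement between a gene's own replicates does not enter its SE. p-values cover only the spread among these libraries. Same-numbered TRAP and input are read as pairs: the headers set them side by side, and their deviations from the group means correlated at 0.451 to 0.679. Every ± is an SE of the fit without the block. Alternatives were a pseudocount of 0.1, no filter, relative log expression scaling, the replicate block, leaving out each library, and edgeR 4.0.16 and DESeq2 1.42.0 on recovered reads. The block with relative log expression scaling was added after seeing the data. Members and lists were chosen with earlier results of these data known. The named genes were all members, the other TRP genes, up to 3 partners of smallest p per list in the strain described, and the 5 most correlated genes.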

Additional observations from a re-analysis of the deposited data

Results flagged for a closer look

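The change of TRAP over input differed between the neuronal and intestine strains for ocr-2, by 3.11 on the log2 scale, and for trp-2, by 3.55, and between the serotonin and neuronal strains for trp-2, by -2.39, each by the interaction test given above. In 4 further cases both replicates of one strain moved one way and both of another the opposite way, and the difference was not tested. For ocr-2 the mean log2 change was 1.30 in serotonin and -0.81 in intestine, a difference of 2.12. For trp-2 the mean change was 0.49 in serotonin and also in dopamine against -0.66 in intestine, differences of 1.15 for both pairs. For gtl-1 it was 0.11 in intestine and -0.30 in dopamine, a difference of 0.41. The listing at 1 RPKM set the sign of the intestine change of ocr-2 and trp-2 and of the neuronal change of trp-2. It also set that of ocr-2 in neuronal replicate 2. With 2 libraries a group no library was tested as an outlier.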

How the results depend on the processing

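Of the 5 members called in the neuronal strain, 2 were called with relative log expression scaling, where 1383 of 13435 genes were higher. By edgeR on recovered reads 0 were called (0 genes in all, 3965 genes and 6 members at an unadjusted p below 0.05). No call held without neuronal input replicate 2. On leaving out 1 library the median log2 change ranged from 1.75 to 2.68 over the 8 members and from 0.04 to 1.75 over all genes. With the replicate block the count was 5, with the block and that scaling 6, and by DESeq2 6. Of the 13435 genes tested, 2103, 3282 and 2514 were higher in these settings. In serotonin the count went from 0 to 2 with the replicate block, with the block and scaling, and by DESeq2. There 1425, 2584 and 1282 of the 14587 genes tested were higher. For neuronal against intestine it went from 2 to 1 with scaling and 1 to 4 on leaving out a library, for dopamine against neuronal from 0 to 2 with either blocked fit and 0 to 3 on leaving out a library, and for serotonin against neuronal from 1 to 0 with a pseudocount of 0.1 and 0 to 2 on leaving out a library. The block changed no other call of a member. Counts over all genes moved more: 2336 in neuronal became 1462 with scaling and 430 without neuronal input replicate 2, and the 0 genes of serotonin and of dopamine became 5661 and 5602 with the block. In muscle the calls were 111 higher and 95 lower, and 288 and 15 with scaling.

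No called member changed sign. Members that had not passed did so as follows. In serotonin trpa-1 went to 0.22 with scaling, blocked or not, 0.25 by edgeR and 0.24 by DESeq2, and gtl-1 to 0.19, 0.25 and 0.25. In dopamine gtl-1 went to 0.21, 0.19 and 0.25. With scaling, the difference went to 0.024 for gon-2 in dopamine against neuronal, and to 0.11 for trp-2 and 0.014 for gtl-1 in dopamine against serotonin. On leaving out 1 library, the change ranged from -0.015 to 0.23 for gtl-1 and -0.38 to 0.48 for gon-2 in intestine, -0.15 to 2.41 for gon-2 in neuronal, -0.042 to 0.82 for gon-2, -0.43 to 0.12 for gtl-1 and -0.35 to 0.18 for trpa-1 in serotonin, and -0.83 to 0.23 for gtl-1 in dopamine. The difference for gon-2 ranged from -0.20 to 2.36 (neuronal against intestine), -1.90 to 0.67 (dopamine against neuronal), -2.02 to 0.54 (serotonin against neuronal) and -0.30 to 0.56 (dopamine against serotonin), where it was -0.21 to 0.19 for trp-2 and -0.68 to 0.38 for gtl-1. The cause was not tested.

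Depth limits the neuronal inputs most, where 8 of the 18 values of members rest on 3 reads or fewer and the median gene had 44 and 70 reads. Genes below 1 RPKM in TRAP and input have no value, so levels under that limit were not measured.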

Other observations

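Of 13 other TRP gene names of the nematode that were looked for, 7 were listed in at least 1 table. trp-4, a TRPN channel that acts as a mechanosensor in the dopamine neurons, stood at 7.96 and 2.07 RPKM in dopamine TRAP RNA against 0.181 and 0.193 RPKM in input, ratios of 43.9 and 10.7. The log2 change was 2.14 ± 0.57 (SE, n = 2 and 2 libraries, limma adjusted p = 0.0892, and 1.79e-06 in the fit blocked by replicate), and the authors' deposited table of dopaminergic genes, 564 in number, gives it an enrichment of 34.1. In the neuronal strain trp-4 stood at 1.99 and 2.05 RPKM in TRAP against 1 read and 0 reads in input, with a change of 1.57 ± 0.50 (limma adjusted p = 0.0133, n = 2 and 2, and 0.132 without neuronal input replicate 2). With inputs below 1 RPKM in both strains, trp-4 was listed only through TRAP, so the listing set its direction and these tests are a description. No table of the serotonin, intestine or muscle strain lists it.

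trpa-2, a second TRPA gene, stood at 13.4 and 3.95 RPKM in neuronal TRAP against 1.33 and 0 RPKM in input, and at 1.86 and 3.41 against 9.46 and 6.36 RPKM in serotonin. Its inputs were thus above both TRAP libraries in serotonin, and likewise in dopamine (2.22 and 1.34 against 10.03 and 3.48 RPKM). The dopamine change was lower than the neuronal change by -3.82 ± 1.06 (limma adjusted p = 0.0329, n = 2 libraries a group, and 0.108 without neuronal input replicate 2), and the serotonin change by -3.77 ± 1.03 (limma adjusted p = 0.0429, and 0.101 without that library). Both differences take in neuronal replicate 2, where trpa-2, with an input of 0 RPKM, was listed only through TRAP. The listing thus set its direction there, and these differences are a description. ocr-3, the remaining TRPV gene, was listed in the neuronal strain alone, at 2.46 and 1.17 RPKM in TRAP against 0.0894 RPKM (1 read) and 0.0380 RPKM (3 reads), and so only through TRAP.

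trpl-2 stood at 5.59 and 10.2 RPKM in intestine TRAP against 3.67 and 6.07 RPKM in input (log2 change 0.58 ± 0.62, limma adjusted p = 0.520, n = 2 and 2). The mucolipin gene cup-5, which acts in lysosomes, and spe-41, which acts in sperm, passed in no strain. trpl-1 was listed in dopamine replicate 1, at 1.89 RPKM in TRAP and 2.16 in input.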
